A study of Mus musculus with 4 samples.

Results

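The genes described here are 36 mouse genes of glycolysis and of the transcriptional response to low oxygen, taken by gene symbol from the 31053 features of 4 single-cell RNA-seq count matrices. They comprise 3 glucose and lactate transporters, 4 genes of hexokinase and phosphoglucose isomerase, 5 of the phosphofructokinase step, 9 of the lower part of glycolysis, 3 of oxygen sensing, 4 acting on mitochondria and cell survival, and 8 with secreted, lipid, protein folding or matrix products. All 36 were found. Aldoa named a second annotation row that held 0 UMIs, so 37 rows carried the 36 symbols.

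The study worked with C57BL/6J mice aged 6 to 8 weeks in an antibody transfer model of epidermolysis bullosa acquisita (EBA), a blistering skin disease in which antibodies bind type VII collagen at the base of the epidermis. Rabbit IgG was given to every mouse in doses of 250 µg, with 3 injections a week over 2 weeks. In the EBA group this was antigen affinity purified vWFA2-COL7 IgG, antibody to a part of collagen VII. In the group written IgG it was control rabbit IgG. Ear skin, taken as lesional punch biopsies, and blood, drawn behind the eye and freed of red cells by lysis, gave 4 libraries, EBA skin, IgG skin, EBA blood and IgG blood, and each pooled cells of 3 mice. Skin cells were released by digestion at 37 °C, and blood cells were not digested, so tissue and digestion cannot be told apart. With 1 library a group there is no replicate, no test and no p-value below.

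As background, glycolysis breaks glucose down to pyruvate, which lactate dehydrogenase turns into lactate when respiration does not take it up. Hypoxia-inducible factor 1, whose oxygen-regulated subunit is encoded by Hif1a, is marked for destruction by prolyl hydroxylases (Egln1, Egln3) while oxygen is present. Otherwise it binds a short DNA motif, often with the core ACGTG, near many genes of glucose transport, glycolysis, angiogenesis and mitophagy. Neutrophils are known for relying on glycolysis, and the epidermis for living at low oxygen.

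The promoter windows of the members show which of them carry that core close to an annotated start. RefSeq windows of build GRCm38.p6 were matched for 32 of the 36 symbols, all but Slc2a3, Bnip3l, Ero1l and Ndrg1, and the 250 bases before the start were searched for ACGTG on both strands, where the palindrome CACGTG counts once on each. Of the 32 windows 16 (50%) held ACGTG, against 4477 of 27025 windows of all genes (16.6%). Among genes at 10 CPM or more over the 4 libraries, 1405 of 6220 windows held it (22.6%). Ldha, the lactate dehydrogenase subunit of most glycolytic tissues, held 5 matches, the nearest 34 bases before the start, and Hif1a held 3. Hk2, the inducible hexokinase, held 2, at 226 and 52 bases before the start. Hilpda, a lipid droplet protein that inhibits triglyceride breakdown and the member with the largest difference between tissues below, held none in this window, which says only that these letters are absent from it. The 4 windows are chr7:46845554-46845803 on the plus strand, chr12:73907617-73907866 on the plus strand, chr6:82774455-82774704 on the minus strand and chr6:29272238-29272487 on the plus strand. They are shown 5′ to 3′ on the gene's strand with each match in capitals.
Ldha: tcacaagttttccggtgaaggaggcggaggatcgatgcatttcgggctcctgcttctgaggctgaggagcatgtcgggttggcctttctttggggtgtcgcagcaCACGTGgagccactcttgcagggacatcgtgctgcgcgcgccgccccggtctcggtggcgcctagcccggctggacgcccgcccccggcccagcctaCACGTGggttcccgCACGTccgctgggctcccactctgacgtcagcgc
Hif1a: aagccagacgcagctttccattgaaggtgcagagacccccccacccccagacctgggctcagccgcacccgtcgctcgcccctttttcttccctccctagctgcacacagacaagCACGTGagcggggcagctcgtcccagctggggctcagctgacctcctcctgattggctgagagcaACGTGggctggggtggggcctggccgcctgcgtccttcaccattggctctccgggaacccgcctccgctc
Hk2: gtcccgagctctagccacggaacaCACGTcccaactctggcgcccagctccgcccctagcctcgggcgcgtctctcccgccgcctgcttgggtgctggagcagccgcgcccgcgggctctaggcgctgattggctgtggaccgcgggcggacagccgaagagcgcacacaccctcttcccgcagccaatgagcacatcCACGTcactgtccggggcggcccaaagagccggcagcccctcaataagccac
Hilpda: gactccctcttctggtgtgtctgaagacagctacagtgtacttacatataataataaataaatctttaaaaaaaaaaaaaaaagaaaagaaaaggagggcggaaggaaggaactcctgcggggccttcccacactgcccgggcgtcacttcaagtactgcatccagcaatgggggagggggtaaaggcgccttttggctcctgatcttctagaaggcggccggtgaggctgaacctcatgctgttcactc

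The matrices held 6300 (EBA skin), 6770 (IgG skin), 5113 (EBA blood) and 5008 (IgG blood) barcodes, and 3325 to 5106 a library were kept at a median of 3741 to 10613 UMIs, the deduplicated transcript counts. The kept barcodes formed 35 clusters, and those named from marker genes were merged into classes, so that neutrophils below stands for neutrophil-like cells and likewise for the other names. Pairs of libraries shared 8 to 15 barcodes. All 8 neutrophil markers were detected in the neutrophil class of each library that held it, and all of the T cell markers but Cd8a in IgG skin were detected in the T cell class. Neutrophils numbered 452 in IgG blood, 813 in EBA blood and 881 in EBA skin, while IgG skin held 1, so neutrophils of skin could be compared only with neutrophils of blood. Outside the erythroid barcodes haemoglobin took up to 1.49% of a class's UMIs in EBA skin and at most 0.01% in IgG skin. A share of 83.8% and 87.0% of neutrophils in IgG and EBA blood, in this order, carried a transcript of Pf4 or Ppbp, genes of platelets, against 2.6% in EBA skin.

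Levels are in CPM, the UMIs of a gene summed over the cells of a class in a library and scaled to a total of 1000000. Each transcript is counted at its 3′ end, so CPM is not scaled by length. Comparisons use the relative ratio, the ratio of CPM divided by the median ratio over all measured genes, so that the median of all measured genes is 1 (0 on the log2 scale) in every comparison. A gene is measured when both sums hold 10 UMIs together and the higher level is 10 CPM or more. It is called higher or lower at a relative ratio of 2 or more, or of 0.5 or less, when its exact 95% interval leaves out 1. The intervals, given right after a ratio, cover counting error only and say nothing about the spread between mice. Gapdh, Eno1, Pgk1, Ldha, Aldoa, Tpi1, Pgam1 and Pkm have near-identical copies in the genome, and their reads may be divided between copies.

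The 36 genes together took the largest share of UMIs in neutrophils of EBA skin, 0.975%, of all classes with 20 cells or more in a library. Platelet and erythroid barcodes are left out of the level orders below, which set 34 class and library columns side by side. The next were the Cd207-led cluster of EBA skin with 0.846%, a cluster led by the langerin gene, and mast cells of EBA skin with 0.822% from only 41 cells. Neutrophils of blood stood at 0.633% in EBA and 0.516% in IgG. T cells took 0.202% and 0.219% in IgG and EBA blood, and 0.555% and 0.645% in IgG and EBA skin. Keratinocytes took 0.332% in IgG skin and 0.625% in EBA skin, while fibroblasts took 0.405% and 0.380%. B cells of both blood libraries (0.170% in IgG and 0.175% in EBA) and erythroid barcodes (at most 0.125%) were lowest.

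**Figure D1:**
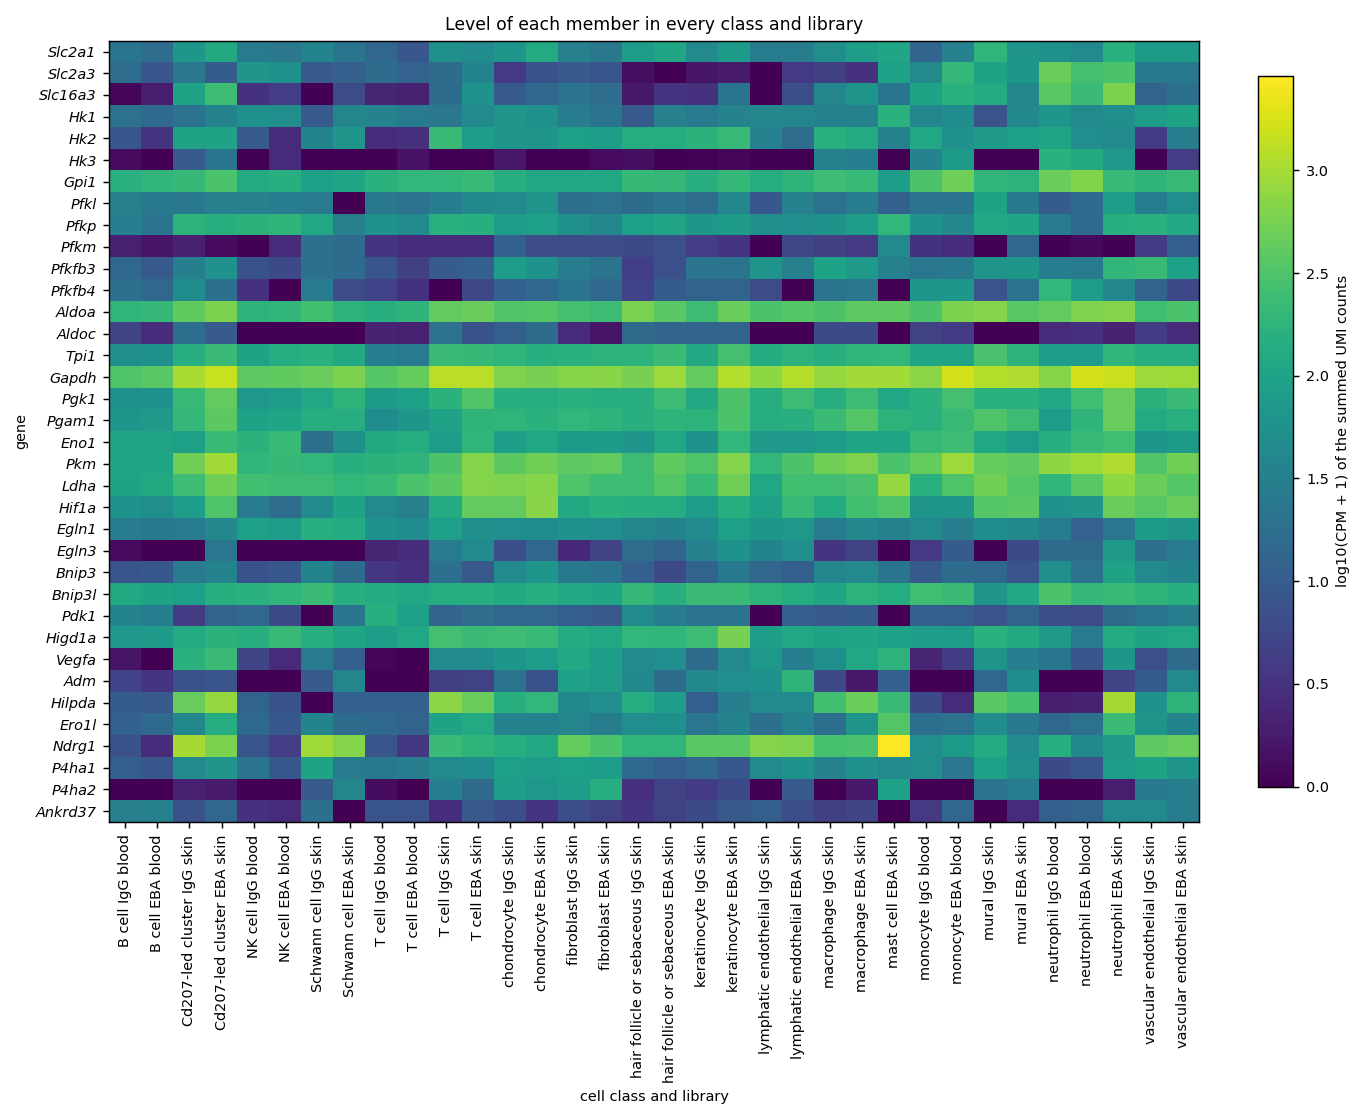
Level of each of the 36 genes (rows, by role) in each class and library (columns), in CPM of the summed UMI counts as log10 of CPM plus 1 on the colour scale. Bright cells are high. Hilpda is brightest in neutrophils and the Cd207-led cluster of EBA skin and in T cells of IgG skin, Ndrg1 in mast cells, and Slc2a3 in the neutrophil columns.

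The transporters divided by cell type. Slc2a3, the high-affinity glucose transporter GLUT3, was at 459 CPM in neutrophils of IgG blood, 271 in EBA blood and 305 in EBA skin, the 3 highest of the 34 values, whose median was 13.5 CPM. Slc2a1, which encodes GLUT1, was highest in mural cells of IgG skin (179.9 CPM, from 27 UMIs) and next in neutrophils of EBA skin (155 CPM). Of the UMIs of both glucose transporters together, Slc2a3 held 89.4% in neutrophils of IgG blood, 86.0% in EBA blood and 66.3% in EBA skin, whereas Slc2a1 held 98.6% in keratinocytes of IgG skin. Slc16a3, the lactate exporter MCT4, was at 590.5 CPM in neutrophils of EBA skin and 372 in those of IgG blood, against a median of 16.1 CPM.

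The hexokinases, which trap glucose in the cell as glucose 6-phosphate, also differed between classes in which gene held most of the UMIs. In T cells of blood Hk1, the constitutive form, held 95.3% (IgG) and 91.4% (EBA) of the hexokinase UMIs, while in T cells of skin Hk2 held 90.7% in IgG and 65.7% in EBA. Keratinocytes also held mainly Hk2 (86.1% in IgG and 86.5% in EBA skin), at 164 CPM in IgG skin and 219 in EBA skin. Hk3, a myeloid hexokinase, was at 159.5, 124 and 69.5 CPM in neutrophils of IgG blood, EBA blood and EBA skin, while the median over the 34 columns was 0.106 CPM. These shares compare counts that are not scaled by length but are each taken at 1 transcript end. Hk1 was highest in mast cells (159 CPM, from 15 UMIs) and then in vascular endothelial cells (102 CPM in EBA skin).

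At the phosphofructokinase step, the committed step of glycolysis, Pfkp was the main gene of neutrophils of EBA skin, with 64.2% of the family's UMIs. Pfkm, the muscle form, reached at most 42.5 CPM, in mast cells, from only 4 UMIs. Pfkfb3 and Pfkfb4 make fructose 2,6-bisphosphate, which activates phosphofructokinase. Pfkfb3 was highest in vascular endothelial cells of IgG skin (212 CPM) and next in neutrophils of EBA skin (188 CPM), whereas Pfkfb4 was highest in neutrophils of IgG blood (196 CPM). The enzymes of lower glycolysis had UMIs in all 34 columns apart from the low Aldoc, and their highest level was 1.92 (Tpi1) to 2.86 (Pgk1) times the median column. Gapdh went from 322 CPM in B cells of IgG blood to 1731 in neutrophils of EBA blood.

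Among the oxygen sensing genes Hif1a was highest in chondrocytes of EBA skin (689 CPM), next in neutrophils of EBA skin (484 CPM), and lowest in NK cells of EBA blood (16 CPM). Egln3 was highest in neutrophils of EBA skin (74.2 CPM) and Egln1 in Schwann cells of IgG skin (152 CPM, from 17 UMIs). Pdk1, the kinase that shuts pyruvate out of the citric acid cycle, had its highest levels in T cells of blood, 152 CPM in IgG and 89.8 in EBA, against a median of 12.1 CPM. Higd1a, a mitochondrial protein, was highest in keratinocytes of EBA skin (554 CPM), and Bnip3l, a mitophagy receptor, in neutrophils of IgG blood among these classes (301 CPM). Vegfa, the endothelial growth factor, was highest in the Cd207-led cluster of EBA skin (229 CPM), and the vasodilator peptide gene Adm in lymphatic endothelial cells of EBA skin (179 CPM). Ndrg1 stood at 2880.1 CPM in mast cells of EBA skin, and its next level was 979 CPM in the Cd207-led cluster of IgG skin. P4ha2, a collagen prolyl hydroxylase, was highest in fibroblasts (143 CPM in EBA skin).

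The tissue comparison within the EBA group asked how neutrophils of inflamed skin differ from those in the blood of mice given the same IgG. Hif1a and Egln3 of the 3 oxygen sensing genes, 8 of 10 measured hypoxia target genes, the transporter genes Slc2a1 and Slc16a3, and 3 of 4 measured genes of the phosphofructokinase step were higher in skin. Gpi1, Pfkfb4 and Hk3 were lower, and Egln1 (1.63), Ndrg1 (1.53) and Bnip3l (0.936) were called in neither direction. Of the 36 members 32 were measured, 16 were called higher and 3 lower (1 lower when cells were named by their marker UMIs in place of clusters), and their median log2 relative ratio was 1.00. The background was large, with 27.6% of 5377 measured genes called higher and 26.9% lower. The unmeasured members were Pfkm, Aldoc, Adm and P4ha2.

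Hilpda was at 0.822 CPM in IgG blood (1 UMI), 1.05 in EBA blood (10 UMIs) and 969.7 in EBA skin (3319 UMIs), a relative ratio of 766 (416 to 1599) between EBA skin and EBA blood. In cells thinned to 500 UMIs each, 0% (exact Clopper-Pearson 95% upper limit 0.813%), 0.123% and 28.8% held a Hilpda UMI, and 1.11% of keratinocytes in EBA skin did. Median depths before thinning were 2424, 9953, 3024 and 34586 UMIs for these 4 columns. The rest of the EBA skin library, all other kept cells together, stood at 113 CPM. Hilpda was close to 0 in both blood libraries and high in skin. Hif1a was at 55.1, 62.1 and 484 CPM in IgG blood, EBA blood and EBA skin, a relative ratio of 6.49 (5.90 to 7.14) within EBA. A Hif1a UMI was found in 2.65%, 2.58% and 23.2% of thinned cells in the same order.

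Vegfa stood at 21.4, 7.69 and 66.3 CPM in the same order of libraries, and its relative ratio within EBA was 7.18 (5.49 to 9.48). Ero1l, an oxidase of disulfide bond formation, had 14.0, 18.5 and 230.2 CPM, a ratio of 10.3 (8.77 to 12.2). P4ha1, a collagen prolyl hydroxylase subunit, had a ratio of 9.51 (7.26 to 12.6). All 3 genes were highest in skin. At the phosphofructokinase step Pfkp was at 24.7, 14.0 and 149.9 CPM, with a ratio of 8.91 (7.35 to 10.9). Pfkfb3 gave 6.34 (5.45 to 7.39) and Pfkl 4.62 (3.76 to 5.68), so 3 of the step's 5 genes were higher in skin, and Pfkfb4 was lower (0.391) with 196, 84.0 and 39.4 CPM. The other members called higher were Bnip3, Higd1a, Egln3, Ankrd37, Slc2a1, Pdk1, Slc16a3 and Pgam1, with relative ratios from 2.06 to 4.38. Of 9 alternative processings, the call of Hk3 was lost in 3, among them no centring and a minimum of 1 CPM. That of Pgam1 was lost in 2, without doublet removal and without barcodes holding Pf4 or Ppbp. That of Pfkfb4 was lost in 2, among them leaving out the platelet barcodes. Those of Slc16a3 and Ankrd37 were lost in 1 each.

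Glucose transport and the first steps of glycolysis were divided. Slc2a1 was at 44.3 CPM in EBA blood and 155 in EBA skin, a ratio of 2.91 (2.55 to 3.31), whereas Slc2a3 had a ratio of 0.937 (0.871 to 1.01). Hk3 was lower in skin at 0.467 (0.404 to 0.537), and Hk1 (1.04) and Hk2 (0.766) were called in neither direction. Gpi1, phosphoglucose isomerase, was at 466, 627 and 215 CPM and had the lowest ratio, 0.285 (0.264 to 0.308). Gapdh (0.724) and Ldha (1.66) were also called in neither direction against EBA blood.

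**Figure D2:**
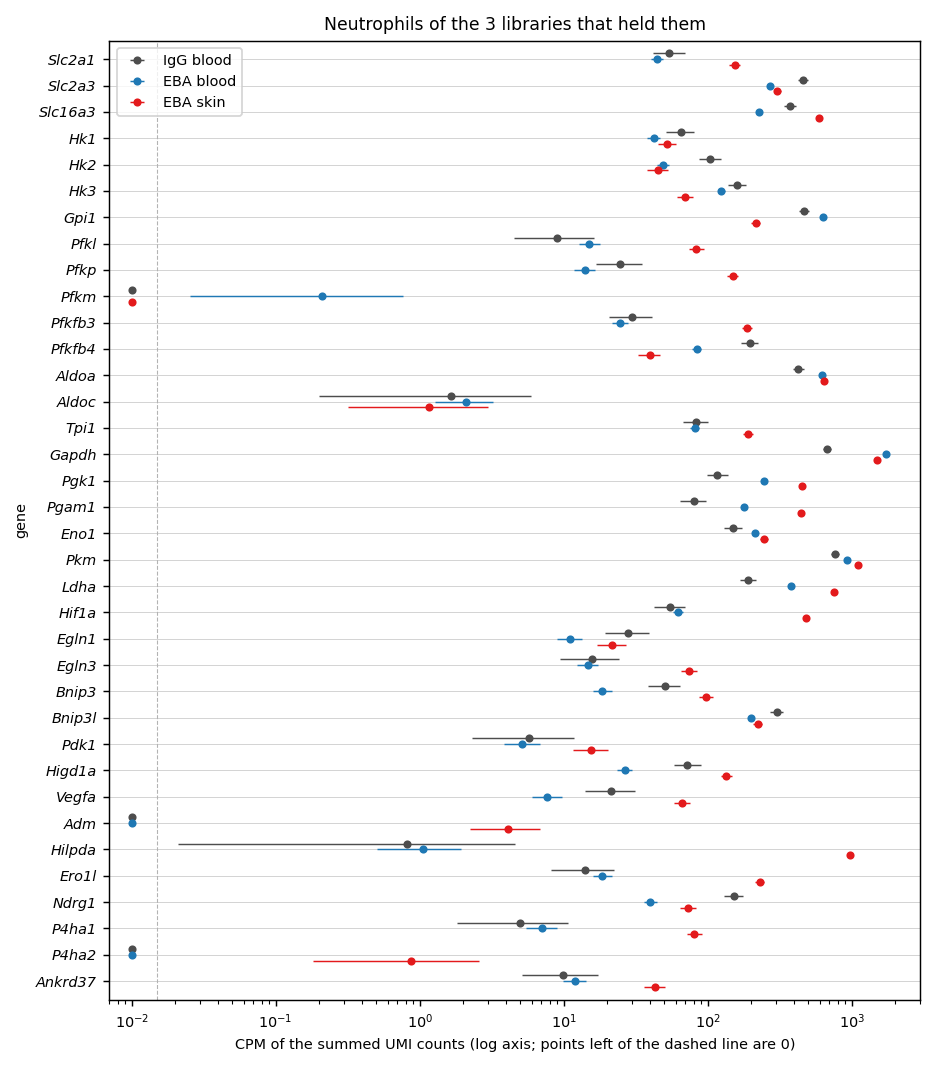
Level of each of the 36 genes in neutrophils of IgG blood, EBA blood and EBA skin, in CPM of the summed UMI counts on a log axis, with exact 95% counting intervals. Hilpda, Hif1a, Ero1l, P4ha1, Pfkp and Pfkfb3 lie far to the right in skin, while Gapdh, Ldha, Pgk1 and Pgam1 of EBA blood lie to the right of those of IgG blood.

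Neutrophils of EBA skin were also set against those of IgG blood, a comparison that shares the EBA skin library with the one above and joins tissue with treatment. Of 32 measured members 23 were called higher and 1, Pfkfb4, lower (0.372, 0.299 to 0.461), beside 26.8% and 24.8% of 6300 measured genes. The ratios here were 16.2 (12.7 to 21.0) for Hif1a, 30.4 (18.8 to 52.4) for Ero1l and 11.2 (7.75 to 16.8) for Pfkp. Hilpda, with 1 UMI in IgG blood, gave 2175 (390.0 to 85914). All 8 measured enzymes of lower glycolysis were higher as well, with Gapdh at 4.11 (3.82 to 4.43) and Ldha at 7.29 (6.37 to 8.37). The median gene was 0.883 log2 units lower in CPM in EBA skin than in IgG blood. On CPM without that centring 17 members were called higher and 5 lower. The calls of Aldoa, Eno1, Pkm, Slc16a3, Bnip3 and Higd1a were lost there.

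The comparison of EBA blood with IgG blood shares both its libraries with the 2 above. Of 29 measured members 13 were called higher in EBA blood and 0 lower, beside 14.4% and 12.2% of 5985 measured genes, and 8 of the 13 were enzymes of lower glycolysis. The others were Gpi1, Pfkl, Ero1l, Ankrd37 and Hif1a. Gapdh was at 674 CPM in IgG blood and 1731 in EBA blood, a relative ratio of 5.44 (5.07 to 5.85). Ldha was at 191 and 378 CPM, with 4.21 (3.68 to 4.82). Pgk1, which makes the first ATP of the pathway, gave 4.46 (3.76 to 5.32) and Pgam1, phosphoglycerate mutase, 4.77 (3.89 to 5.92). Aldoa, Eno1, Gpi1 and Pkm had ratios from 2.57 to 3.1. Hif1a was nearly level in CPM, 55.1 against 62.1, and its relative ratio was 2.39 (1.85 to 3.12).

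That split depends on the scale, because the median gene was 1.08 log2 units lower in CPM in EBA blood. Without centring 3 members, which include Gapdh, were called higher and 7 lower. Without the barcodes holding a Pf4 or Ppbp UMI, 3 members were lower in place of 0 and the log2 relative ratio of Hif1a was -0.61. The 8 neutrophil marker genes took 118985 CPM in IgG blood, 387063 in EBA blood and 161912 in EBA skin. The clusters also differed: neutrophils of IgG blood lay mainly in cluster 16 (88.7%), those of EBA blood in clusters 10 (55.2%) and 17 (43.9%, led by the granule genes Camp, Ngp and Ltf), and those of EBA skin in cluster 4 (99.8%). Within cluster 10, which held 449 EBA and 51 IgG cells, 12 of 29 members were higher in EBA blood and 1, Ndrg1, was lower, beside 8.47% and 7.84% of all genes measured there. Within EBA blood, cluster 17 over cluster 10 gave 2 members higher (Ero1l, 3.15, and Pgam1, 2.09) and 5 lower of 29, beside 7.55% and 11%. Ankrd37 was the lowest of these at 0.332. A list of 12 immediate-early and heat-shock genes, put together after the data were seen, summed to 6817, 1901 and 3391 CPM in neutrophils of IgG blood, EBA blood and EBA skin. The 6 platelet markers summed to 3809, 3253 and 7.30 CPM (Gp9 and Treml1 at 0 in skin), and the 11 keratinocyte markers to 0.822, 0.527 and 1710.1 CPM, with 10 and 9 of them at 0 in IgG and EBA blood. Their part in these results was not tested.

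Other genes of the same pathways, from lists of 22 glycolysis, 28 hypoxia response, 7 pentose phosphate, 21 citric acid cycle and 18 oxidative phosphorylation genes, separated in neutrophils of EBA skin against EBA blood. Of the hypoxia list 17 were measured, and 10 were higher and 1 lower. Hmox1, haem oxygenase, was at 3046 CPM in skin and 63.4 in EBA blood. Bhlhe40, a transcriptional repressor, was at 328 and 2.42 CPM, and Plin2, a lipid droplet coat protein, at 1352 and 89.0 CPM. All 6 measured pentose phosphate genes were lower in skin, among them Tkt, transketolase (109 against 579 CPM, ratio 0.157, 0.141 to 0.174), and G6pdx, the enzyme of entry (0.164, 0.135 to 0.197). Of 17 oxidative phosphorylation genes 1 was higher and 9 lower, and of 14 citric acid cycle genes 1 was higher and 5 lower. Against IgG blood 2 of 7 pentose phosphate genes were lower and 0 higher, and 2 of 17 oxidative phosphorylation genes were higher and 1 lower, while 11 of 18 hypoxia genes were higher and 0 lower. Between EBA and IgG blood 3 of 7 pentose phosphate genes were higher, with Tkt at 5.10 (4.53 to 5.75).

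T cells were present in all 4 libraries, so skin could be set against blood in each treatment with no library shared between these 2 comparisons. In both, Hk2, Hif1a, Egln3 and the targets Hilpda, Vegfa, Ndrg1, Ero1l and P4ha2 were higher in skin and Pdk1 was lower. Of the measured hypoxia target genes, Pdk1 among them, 7 of 10 were higher and 1 lower in IgG, and 5 of 9 higher and 1 lower in EBA. P4ha1 (1.63 and 1.06) and Bnip3l (0.964 and 0.776) were called in neither comparison. In IgG mice (157 cells of skin, 1203 of blood) 18 of 30 measured members were called higher and 1 lower, with a median log2 relative ratio of 1.45, beside 24.6% and 18% of 8201 measured genes. In EBA mice (191 and 623 cells) the calls were 14 higher and 1 lower of 29, with a median of 0.95, beside 23.2% and 18.9% of 8195. When each cell was thinned to 500 UMIs, which leaves fewer members measured, the counts were 10 higher in IgG and 6 higher and 0 lower in EBA. Without centring 21 members were higher in EBA, where the median gene was 0.714 log2 units higher in CPM in skin.

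Hk2 was at 1.71 and 1.98 CPM in blood of IgG and EBA mice, and at 223 and 82.5 CPM in their skin. The relative ratio of skin to blood was 119 (66.0 to 237) in IgG and 25.4 (12.3 to 60.5) in EBA. Hilpda was at 10.9, 10.9, 726 and 462 CPM in the same order, with ratios of 61.3 (47.9 to 79.4) and 25.8 (18.9 to 36). Both genes were low in each blood library and high in each skin library. Of the 127 Hk2 UMIs of T cells in IgG skin, 125 came from cluster 26, and of the 90 in EBA skin, 58 did. That cluster, described below, held 0 cells of blood. Ndrg1, a stress-responsive gene, was at 7.29, 2.48, 229 and 176 CPM. Vegfa held 1 and 0 UMIs in T cells of IgG and EBA blood and reached 42.2 and 45.8 CPM in skin, a ratio of 271 (44.2 to 11138) in IgG and at least 37.6-fold higher in EBA against a floor of 3 counts. Egln3 was higher in skin at 18.8 (7.71 to 48.7) and 15.8 (7.11 to 41.3).

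Hif1a was at 42.3, 31.2, 132 and 429 CPM in that order of libraries, with tissue ratios of 2.86 (2.19 to 3.70) in IgG and 8.37 (6.86 to 10.3) in EBA. Slc2a1 had ratios of 3.76 (2.40 to 5.74) and 3.63 (2.28 to 5.89). Gapdh was called higher in IgG (3.24) and in neither direction in EBA (1.77), and Ldha was called in neither (1.64 in IgG, 1.30 in EBA). Pdk1 ran the other way, at 152 and 89.8 CPM in blood against 12.3 and 16.5 in skin, with ratios of 0.0744 (0.0298 to 0.154) and 0.112 (0.0657 to 0.180). Of the hypoxia list beyond the members, 7 of 17 genes were higher and 1 lower in IgG, and 8 of 18 higher and 0 lower in EBA. Bhlhe40 (38.7 against 1.43 CPM in IgG, 230.1 against 1.49 in EBA) and Plin2 were higher in both. Oxidative phosphorylation genes gave 1 higher and 1 lower of 18 in IgG and 0 in either direction in EBA.

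The T cells of blood and skin were mostly different clusters, which bears on these values. Cluster 2 held 87.6% and 80.3% of the T cells of IgG and EBA blood. In skin cluster 20 held 33.8% in IgG and 75.9% in EBA. Its 10 leading genes were Icos, Il2ra, Ikzf2, Cxcr6, Tnfrsf9, Tnfrsf4, Ctla4, Il17f, Ramp3 and Gzmb. Cluster 26, led by Trdc, Rgs1 and Cd3g, held 66.2% and 23%. Trdc encodes the constant part of the delta chain of the gamma delta T cell receptor. Hk2 was mostly a gene of cluster 26, with 349 CPM in IgG skin and 254 in EBA skin, against 9.51 and 37.5 in cluster 20 of the same libraries. Hif1a and Ldha had the opposite order. Hif1a was at 219 and 518 CPM in cluster 20 and 80.9 and 114 in cluster 26, and Ldha at 632 and 772 against 251 and 219. Hilpda was high in both, from 362 to 890.2 CPM.

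**Figure D3:**
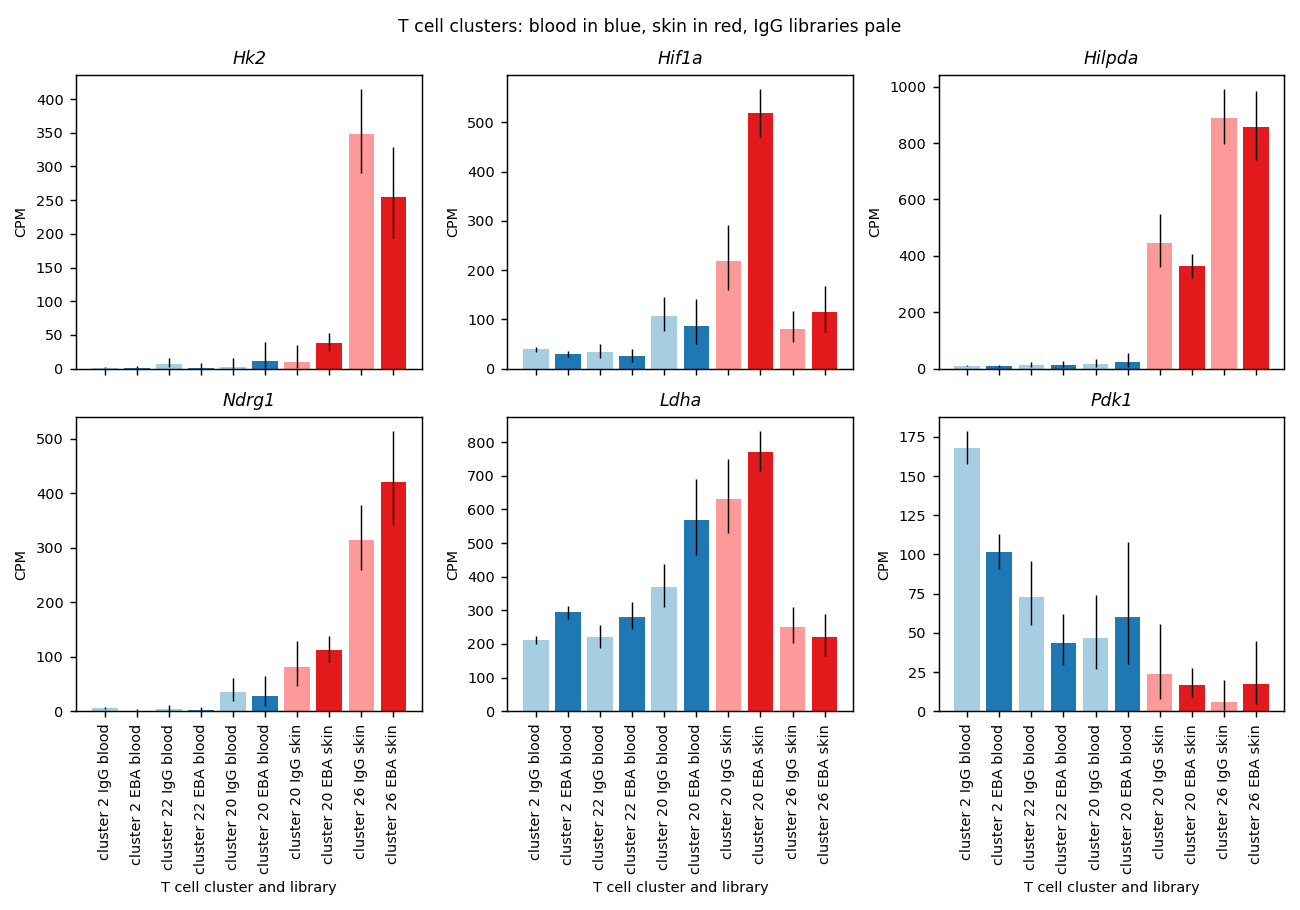
Level of Hk2, Hif1a, Hilpda, Ndrg1, Ldha and Pdk1 in the T cell clusters of each library, in CPM of the summed UMI counts (bars, from 0) with exact 95% counting intervals (lines), blood in blue and skin in red. Hk2 is highest in cluster 26 of both skin libraries, Hif1a in cluster 20 of EBA skin, and Pdk1 in the blood clusters.

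Cluster 20 was found in blood as well, with 48 cells in IgG and 28 in EBA, so skin and blood could be compared within it. These blood cells held only 6 and 4 Hilpda UMIs. They held 1 and 2 Hk2 UMIs, against 2 and 32 in cluster 20 of IgG and EBA skin, so Hk2 was too low to be measured in IgG. In IgG 8 of 25 measured members were higher and 0 lower in skin, beside 12.7% and 9.36% of all genes measured there, and in EBA 11 of 29 were higher and 1 lower, beside 9.43% and 8.99%. Hilpda had a ratio of 29.1 (12.9 to 81.3) in IgG and 14.9 (5.76 to 55.1) in EBA within this cluster, and Hif1a 2.19 (1.40 to 3.45) and 5.33 (3.25 to 9.41). The 12 immediate-early and heat-shock genes summed to 2127 and 2314 CPM in T cells of IgG and EBA blood and to 9457 and 8642 in skin. The 11 keratinocyte markers summed to 2145 and 1623 CPM in T cells of IgG and EBA skin, against 7.71 and 9.42 in blood, where 8 of them were at 0 in each. The part of either in the tissue difference was not tested.

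Between EBA and IgG skin the comparison asked how the resident cells of diseased skin differ from those of control skin. Keratinocytes of EBA skin had higher levels of the lactate exporter gene Slc16a3, of 7 of the 9 genes of lower glycolysis and of 4 of 10 measured hypoxia target genes (Vegfa, Hilpda, Higd1a and Bnip3). Of 31 measured members 14 were called higher and 0 lower, with a median log2 relative ratio of 0.94, beside 4.67% and 2.09% of 6848 measured genes. The values rest on 902 cells of EBA skin at a median of 34586 UMIs and 3418 of IgG skin at 13591.5. When each cell was thinned to 500 UMIs, 9 members were called higher and 1 lower.

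Slc16a3 was at 2.08 CPM in IgG skin and 20.8 in EBA skin, a relative ratio of 10.8 (9 to 13), the largest of the 31. Gapdh was at 428 and 1171 CPM, a ratio of 2.96 (2.92 to 3.00), and Ldha at 211 and 506 CPM, a ratio of 2.59 (2.54 to 2.65). Eno1, enolase, gave 3.74 (3.60 to 3.89) and Pgk1 2.83 (2.76 to 2.92). Of the genes of lower glycolysis, Pgam1 (1.87) and Aldoc (1.10) were called in neither direction, and neither were the glucose transporter and hexokinase genes. Slc2a1 was at 42.6 and 75.8 CPM (1.92), Hk1 at a ratio of 1.39 and Hk2 at 1.44. Among hypoxia targets Vegfa was at 14.7 and 41.7 CPM (3.07, 2.83 to 3.33), Hilpda at 9.64 and 28.7 (3.22, 2.92 to 3.55) and Higd1a at 233 and 554 (2.57, 2.51 to 2.62). Hif1a itself was called in neither direction (1.89), and so were Bnip3l (1.09), Ndrg1 (1.06) and P4ha1 (0.647). The remaining members called higher were Pfkl, Tpi1, Bnip3, Pkm, Egln1 and Aldoa, from 2.03 to 2.64. Of 8 alternative processings, the call of Aldoa was lost in 3, among them no centring and cells named by marker UMIs. That of Egln1 was lost in 1, without centring. Those of Ldha, Hilpda, Tpi1, Bnip3 and Pkm were also lost in 1 each. Of the other hypoxia genes 6 of 18 were higher and 0 lower, with Ndufa4l2 at 5.76, Fam162a at 5.48 and Plin2 at 5.27, while 0 of 18 oxidative phosphorylation genes were called.

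The make-up of the keratinocytes changed at the same time. Cluster 7, led by the wound keratin genes Krt6b, Krt6a and Krt16, held 2.25% of keratinocytes in IgG skin and 52.9% in EBA skin, and cluster 1, led by the basal genes Krt15 and Krt5, 44.0% and 10.1%. Within most clusters few members were called. In cluster 7 the 36 members took 0.706% of UMIs in IgG and 0.739% in EBA skin, and 0 of 31 were higher and 1 lower, beside 3.56% and 0.974% of the genes measured there. In cluster 1 they took 0.336% and 0.381%, with 1 higher and 1 lower of 26 (2.86% and 1.02%), and Vegfa was the higher one at 2.31 (1.82 to 2.91). Cluster 3 gave 1 higher and 0 lower of 26 (2.52% and 1.45%), cluster 8 gave 1 and 1 of 27 (2.05% and 0.884%), and cluster 30 gave 0 and 4 of 16 (12% and 13.7%). Cluster 12 gave 5 higher and 1 lower of 29 (6.12% and 2.76%), with Hilpda at 6.32 (4.69 to 8.56) and Vegfa at 6.15 (4.82 to 7.87).

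Cluster 23, the cycling keratinocytes led by Ube2c, Top2a and Mki67, had the most members called of the keratinocyte clusters. Its members took 0.385% of UMIs in the 143 cells of IgG skin and 0.983% in the 52 cells of EBA skin, at median depths of 16470 and 39773.5 UMIs, and 18 of 31 were called higher and 1, Adm, lower, beside 7.28% and 6.77%. Slc16a3 was at 6.12 and 111 CPM (17.7, 11.2 to 29.3), Ldha at 288 and 1056 (3.57, 3.31 to 3.85), and Slc2a1 at 75.0 and 234 (3.04, 2.62 to 3.54). Egln3 gave 6.05 (3.76 to 10.2), Eno1 3.88 (3.38 to 4.47) and Aldoa 3.83 (3.47 to 4.23). Here Krt6a, a leading gene of cluster 7, was at 79.9 CPM in IgG and 3546 in EBA skin, and Krt16 at 129 and 1512. The 8 neutrophil markers summed to 4.59 CPM in IgG skin (5 at 0) and 804 in EBA skin (Ly6g at 0) in this cluster. In all keratinocytes they summed to 75.6 and 3349.8. Most of the EBA sums came from S100a8 and S100a9, at 378 and 388 CPM in this cluster and 1520 and 1777 in all keratinocytes. Among keratinocyte clusters these 2 genes were highest in cluster 7 of EBA skin, at 2272 and 2668 CPM. The part of either set of genes in the members' difference was not tested.

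**Figure D4:**
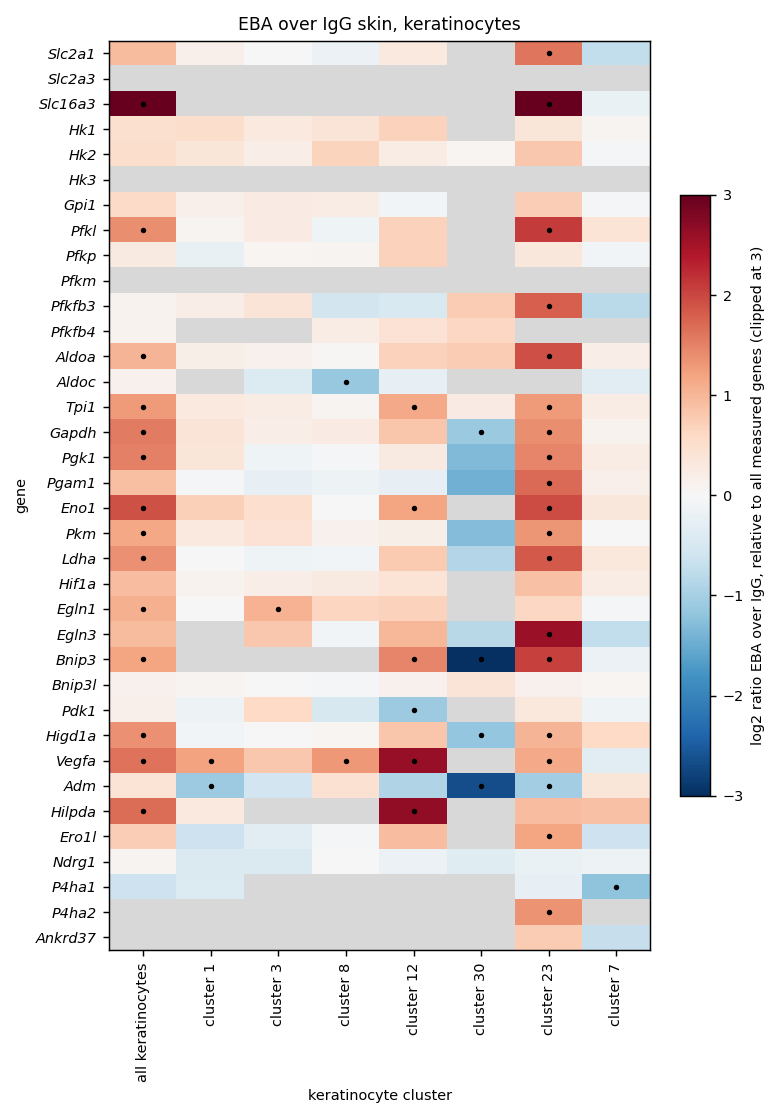
Log2 relative ratio of EBA over IgG skin for each of the 36 members (rows) in all keratinocytes and in each keratinocyte cluster (columns), red for higher in EBA, grey where not measured, with a dot on called values. The column of all keratinocytes holds 14 dots and cycling cluster 23 holds 19, while cluster 7 holds 1.

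The comparison of T cells between EBA and IgG skin uses the same skin libraries as the tissue comparisons above. It gave 2 members higher and 3 lower of 31, beside 6.65% and 9.63% of 8244 measured genes, and 5 higher and 2 lower without centring. Hif1a was higher (2.85, 2.23 to 3.68), as was Slc16a3 (3.19, 1.58 to 7.30), and Hk2 (0.323, 0.244 to 0.427), P4ha2 (0.429, 0.203 to 0.903) and Aldoc (0.290, 0.0954 to 0.820) were lower. The call of P4ha2 was lost in 3 of 7 alternative processings, and with cells named by their marker UMIs Hk2 was the 1 member lower. Within cluster 20 Hif1a was the 1 member called of 28 (2.21, 1.63 to 3.06), beside 2.97% higher and 3.32% lower of all genes measured there, and Hk2 gave 3.67 (0.937 to 31.6). Within cluster 26 Hk2 was at 0.657 (0.473 to 0.904), called in neither direction, and of 25 members Vegfa was higher (2.16, 1.21 to 3.94) and Egln1 lower (0.486, 0.230 to 0.958), beside 5.55% and 3.58%. Inside cluster 26 the interval of Hk2 left out 1, though the ratio did not reach the limit of 0.5. That cluster held a smaller share of the T cells in EBA skin. Its part in the lower Hk2 of the whole class was not tested.

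Macrophages of EBA skin had 3 of 28 members higher and 0 lower, beside 4.58% and 4.78% of 7679 measured genes. These were Ero1l (16.6 to 61.0 CPM, 3.71, 2.15 to 6.92), Vegfa (52.2 to 114 CPM, 2.20, 1.60 to 3.08) and Hif1a (130.5 to 259 CPM, 2.00, 1.64 to 2.47). Hif1a lay at the limit of 2, and its call was lost in 4 of 8 alternative processings, that of Vegfa in 3 and that of Ero1l in 1, while a mitochondrial limit of 5% gave 6 members higher. Fibroblasts had 0 of 29 called in either direction, beside 3.16% and 3.27% of 8328, and their Hif1a was at 122 and 162 CPM. Vascular endothelial cells, 54 and 58 cells, had 3 of 32 higher and 1 lower, beside 3.86% and 4% of 7850. Adm was higher (9.10 to 42.0 CPM, 4.46, 1.37 to 23), Hilpda was higher (3.14, 1.90 to 5.50), Hk2 was higher from 1 UMI to 17 (8.74, 1.37 to 365), and Pfkfb3, which is known to drive endothelial sprouting, was lower (212 to 95.3 CPM, 0.433, 0.301 to 0.622). Haemoglobin was 0.00819% of their UMIs in IgG and 1.49% in EBA skin, and its part was not tested. When cells were named by their marker UMIs the log2 ratio was -1.53 for Hk2 and -0.85 for Adm, at a mitochondrial limit of 5% the calls of Adm and Hilpda were lost, and with thinned cells 0 members were called.

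The Cd207-led cluster had 7 of 33 members higher and 3 lower in EBA skin, beside 8.12% and 5.83% of 7221 measured genes. Hif1a was at 84.0 and 322 CPM in IgG and EBA skin (3.57, 2.84 to 4.53), and Ero1l gave 3.19 (2.29 to 4.56). Egln3 held 0 UMIs in IgG and 82 in EBA skin, at least 6.44-fold higher against a floor of 3 counts. Pdk1, Hk3, Slc16a3 and Eno1 completed the higher set, and Pfkfb4, Slc2a3 (23.1 to 9.04 CPM, 0.364, 0.207 to 0.654) and Aldoc were lower. The 8 neutrophil markers summed to 43.0 CPM in IgG skin (5 at 0) and 1575 in EBA skin, and their part was not tested.

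In blood, monocytes had 13 of 29 members higher in EBA and 0 lower, beside 10.8% and 6.51% of 7516 measured genes, and 7 higher and 2 lower without centring, where the median gene was 0.481 log2 units lower in EBA. Slc2a3 was at 41.9 and 199 CPM in IgG and EBA blood (6.62, 5.38 to 8.25), Slc2a1 at 12.6 and 33.5 (3.70, 2.51 to 5.66), and Hk3 at 33.4 and 75.7 (3.17, 2.49 to 4.08). Gapdh gave 3.16 (3.00 to 3.33) and Ldha 2.81 (2.52 to 3.15). The share of Hk3 among hexokinase UMIs went from 17.5% to 42.4%. The 8 neutrophil markers, all detected in both, summed to 5701 CPM in monocytes of IgG blood and 164832 in those of EBA blood. Barcodes with a platelet UMI were 57.3% and 91.0% of monocytes, and without them 3 members were higher and 1 lower. Without doublet removal the class lost its larger cluster, and 1 member was higher and 1 lower. Cluster 11 held 45.8% and 88.4% of the monocytes. Within it 11 of 28 members were higher and 0 lower (9.78% and 6.42%), with neutrophil markers at 8924 and 168857 CPM. Within cluster 25, where these markers summed to 1112 and 518 CPM, 0 of 26 were higher and 1, Pfkfb4, lower (2.74% and 2.44%). The part of these markers in the monocyte values was not tested beyond this.

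The smaller classes of skin held from 29 to 191 cells a library. In lymphatic endothelial cells, 46 of IgG and 34 of EBA skin, 3 of 27 members were higher and 2 lower, beside 3.39% and 4.93% of measured genes. Adm, a peptide known for its part in lymphatic development, was at 53.8 CPM in IgG and 179 in EBA skin, a ratio of 2.93 (1.83 to 4.90). In chondrocytes, the cells of ear cartilage, Adm was lower at 0.335 (0.163 to 0.654), and 2 of 33 members were higher and 1 lower, beside 4.77% and 3.55%. Hif1a stood at 420.3 and 689 CPM in them, a ratio of 1.75 (1.59 to 1.93). Mural cells, 29 and 37 cells, had 0 of 29 higher and 4 lower, beside 3.56% and 6.49%, with Slc2a1 at 179.9 and 62.6 CPM, a ratio of 0.320 (0.189 to 0.546). Schwann cells had 0 of 17 higher and 2 lower, beside 3.97% and 5.13%, and hair follicle or sebaceous cells 1 of 28 higher and 2 lower, beside 4.94% and 6.59%.

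In lymphocytes of blood no member was called between treatments. B cells had 0 of 24 members called in either direction (beside 1.19% and 2.4% of measured genes), T cells 0 of 22 (1.34% and 2.3%) and NK cells 0 of 22 (1.94% and 3.39%). Gapdh was at 322 and 379 CPM in B cells of IgG and EBA blood, 355 and 441 in T cells and 394 and 415 in NK cells. The plot of EBA over IgG by class shows the members side by side. Its classes share libraries with one another and are not replicates.

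Platelet barcodes of blood had 5 of 15 members higher and 0 lower in EBA, beside 12.1% and 12.4% of measured genes, and erythroid barcodes 2 of 9 higher and 0 lower, beside 25.1% and 8.54%. Bnip3l, whose protein clears mitochondria from maturing red cells, was at 606 CPM in the 21 erythroid barcodes of IgG blood and 917 in the 254 of EBA blood. Haemoglobin took 59.8% and 85.4% of their UMIs, and the part of this difference in the ratios was not tested.

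**Figure D5:**
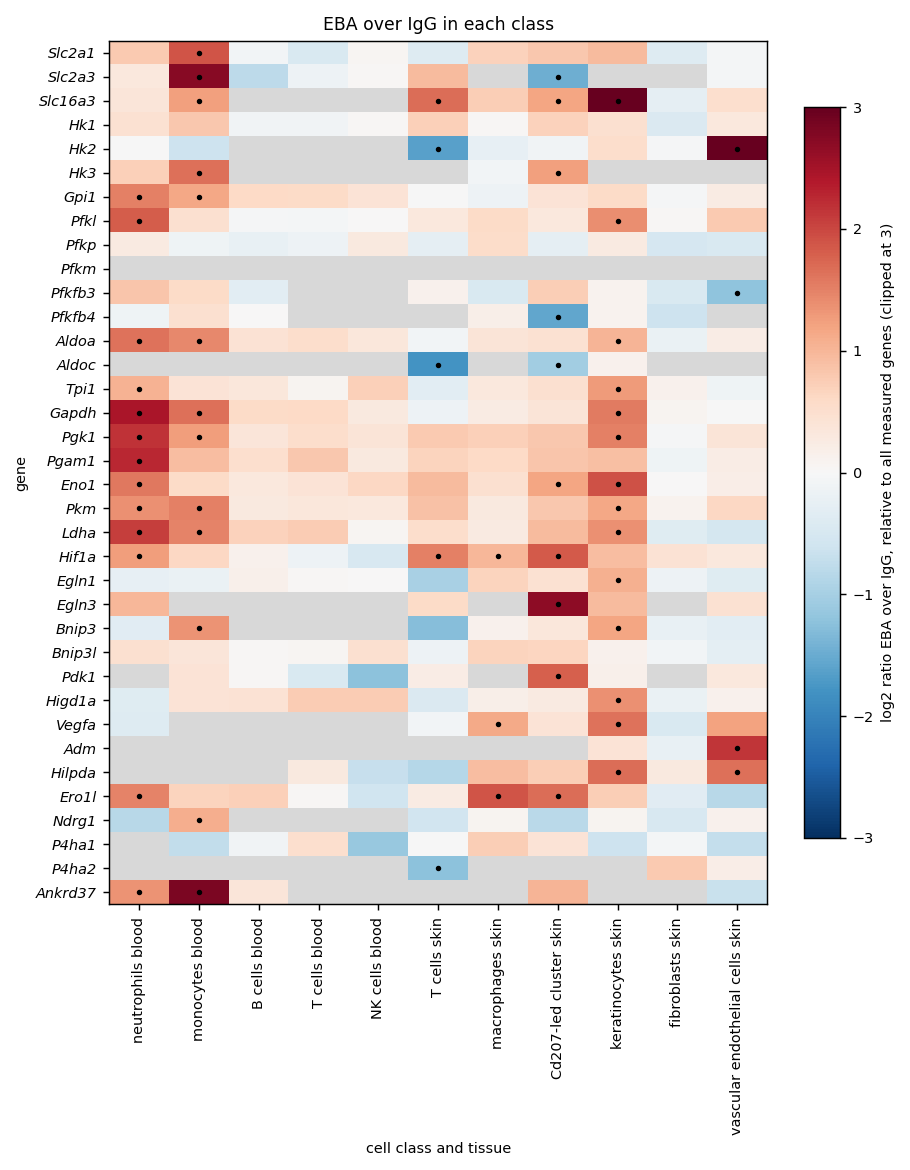
Log2 relative ratio of EBA over IgG for each of the 36 members (rows) by class (columns), red for higher in EBA, grey where not measured, with a dot on called values. The columns of blood are neutrophils, monocytes, B cells, T cells and NK cells. Those of skin are T cells, macrophages, the Cd207-led cluster, keratinocytes, fibroblasts and vascular endothelial cells. The other classes compared are not drawn. Calls gather in the columns of neutrophils and monocytes of blood, of keratinocytes and of the Cd207-led cluster. The fibroblast, B cell, NK cell and blood T cell columns hold none.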

How the data were processed

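Single-cell 3′ libraries of pooled ear skin or blood cells were deposited as 4 matrices of raw UMI counts per gene and barcode. Per the file headers and the submitters' processing notes the authors made them with Cell Ranger 3.0.0 on build mm10, and the notes also name Seurat 3.0.0 and 3.1.0. How barcodes were chosen for deposit is not given in the sources used here. The matrices summed to 81861688 (EBA skin), 90829463 (IgG skin), 37508438 (EBA blood) and 22705634 (IgG blood) UMIs.

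Barcodes under 200 genes or over 10% mitochondrial UMIs were left out, 94 to 228 a library were removed as likely doublets at 0.8% per 1000 barcodes, and the rest were clustered, without the members and the other pathway genes, with scanpy 1.11.5 and leidenalg 0.10.2 (2000 variable genes, 30 components, 15 neighbours, resolution 1) and named from 152 markers of 23 types. UMIs were summed per class and library, scaled to CPM and compared as relative ratios with exact conditional binomial 95% intervals (scipy 1.17.1), and the code was checked on simulated counts. Classes needed 20 cells, and a sum of 0 was set to a floor of 3 counts. With 1 library a group no test was run.

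All 36 members are accounted for. In each comparison up to 8 called members a direction were named, ranked by the bound nearest 1, beside Hif1a, Slc2a1, Slc2a3, Hk1, Hk2, Hk3, Gapdh, Ldha, Vegfa and Bnip3l, and up to 3 a direction of the other pathway lists. The members and lists were chosen with earlier results of these data known. Alternatives were the scaling, a minimum of 1 CPM, a mitochondrial limit of 5%, naming cells by marker UMIs, no doublet removal, leaving out platelet barcodes, thinning to 500 UMIs and resolution 2. The comparisons within clusters, the marker sums and the limit on haemoglobin UMIs were chosen after seeing the data. Protein sequences were not used here.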

Additional observations from a re-analysis of the deposited data

Results flagged for a closer look

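Hk2, the inducible hexokinase gene, moved in opposite directions between EBA and IgG skin in 2 cell classes. In vascular endothelial cells its log2 relative ratio was 3.13, from 1 UMI in IgG skin and 17 in EBA skin. In T cells of skin it was -1.63, from 223 CPM in IgG skin to 82.5 in EBA skin. With cells named by their marker UMIs the endothelial value was -1.53, so that the directions were no longer opposite. The T cell value was not called in either T cell cluster of skin. Its relative ratio was 3.67 (0.937 to 31.6) in cluster 20 and 0.657 (0.473 to 0.904) in cluster 26. In cluster 26 the interval left out 1, though the ratio did not reach the limit of 0.5. Cluster 26 held 66.2% of these T cells in IgG and 23% in EBA skin, and its part in the T cell value was not tested. Both values come from the same 2 libraries, and the difference between the classes was not tested.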

How the results depend on the processing

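No paired analysis was possible because each group held 1 library and all 4 carried the same replicate number. Of the counts of members called under the alternatives, 208 stayed within 1.5 times the value reported and 34 did not, and of the values of single members 1700 kept their direction and call, 25 gained a call, 89 lost it and 14 turned. Clustering at resolution 2 and leaving out barcodes over 1% haemoglobin UMIs moved no count. Without centring, members lower were 5 (neutrophils, EBA skin over IgG blood), 7 with 3 higher (neutrophils, EBA over IgG blood), 2 with 7 higher (monocytes) and 1 (B cells), T cells of EBA over IgG skin had 5 higher, and Tpi1 of blood neutrophils was at -0.034. With a minimum of 1 CPM, fibroblasts had 1 higher and 1 lower, B cells 2 lower and blood T cells 1 lower. At a 5% mitochondrial limit T cells of IgG skin over blood had 2 lower, macrophages 6 higher and vascular endothelial cells 3 lower. With cells named by marker UMIs, neutrophils of EBA skin over EBA blood had 1 lower, T cells of EBA over IgG skin 1 lower and vascular endothelial cells 2 lower, with Hk2 at -1.53 and Adm at -0.85. Without doublet removal monocytes had 1 higher and 1 lower and NK cells 2 higher, and the monocyte values were -0.24 (Slc2a1 and Hk3), -1.24 (Slc2a3), -0.97 (Slc16a3) and -0.33 (Pgk1), since the class then lacked its larger cluster. Without barcodes holding Pf4 or Ppbp, neutrophils of EBA over IgG blood had 3 lower, with Hif1a at -0.61, and monocytes 3 higher and 1 lower, with Slc16a3 at -0.24 and Pgk1 at -0.0752. With cells thinned to 500 UMIs, fewer UMIs were summed: T cells of skin over blood had 10 higher in IgG, with Pgk1 at -0.40, and 6 higher and 0 lower in EBA, keratinocytes 9 higher and 1 lower, vascular endothelial cells 0 and 0, monocytes 6 higher, with Slc16a3 at -0.48 and Ndrg1 at -0.0890, blood T cells 3 higher, NK cells 1 higher, and neutrophils of EBA over IgG blood 1 lower. Values of single members are log2 relative ratios. Where no construction is named, the cause was not tested. The depth of a class sets which members can be called, and with 1 library a group the spread between mice is unknown.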
